A study of Amphimedon queenslandica and Mnemiopsis leidyi and Nematostella vectensis with 36 samples.

Results

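The regions described here are stretches of the genome of the marine sponge Amphimedon queenslandica to which transcription factors attached in a test tube, and which lie on contigs numbered below 12000. Contigs are the unbroken pieces of a draft genome assembly. The regions were found by pooling 120443 peaks from 16 lists and merging peaks that shared at least 1 bp, which gave 52356 regions. Of these, 6333 regions (12.1%), built from 13190 peaks, lay on 4109 contigs numbered below 12000. The other 46023 regions, built from 107253 peaks, lay on 1407 contigs numbered 12000 or above. The contig number alone chose the regions, and no measured value entered the choice.

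Each list came from 1 library of DAP-seq or ampDAP-seq, in which a factor is translated in vitro with a HaloTag attached and then used to pull down adapter-ligated genomic DNA for sequencing. The DNA was from swimming larvae at 0 h. For ampDAP-seq it was copied by 11 cycles of PCR before the factor was added, which removes cytosine methylation, whereas DAP-seq used the native DNA. NRF, YY1 and SP41, the last also called SP in the labels, were each used in full length and as the DNA binding domain alone (DBD), and EGR and GLI as DBD, giving 8 constructs on each kind of DNA. A library with the empty HaloTag was the control for each kind. No factor had a replicate library.

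Transcription factors recognise short DNA words, and a cytosine within such a word can carry a methyl group that weakens, strengthens or does not alter binding, depending on the factor. YY1, EGR, GLI and SP proteins bind through zinc fingers. In other animals EGR and SP proteins read GC-rich words, GLI proteins act at the end of Hedgehog signalling, and YY1 both activates and represses genes. An assembler ends a contig where the reads no longer give 1 clear continuation, as happens at repeats and where the parental chromosomes differ.

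The contig number followed contig size as far as peaks can show it. In blocks of 1000 numbers, the largest peak end rose in 13 of 13 steps, as did its median over contigs. It was 1061 bp in the lowest block, 13935 bp in the last block below 12000, 65827 bp in the next one and 1888443 bp in the highest. The median largest peak end per contig was 1402 bp below 12000 and 35191 bp from 12000 on. Low-numbered contigs are thus short pieces, of which 96.9% had no peak past 10000 bp, against 9.88% of the high-numbered contigs that held a region. Around the bound the ranges overlapped. The 7 contigs with a region from 11992 to 11998 had 1 to 4 regions and largest peak ends of 1430 to 13826 bp, and the 6 from 12000 to 12006 had 1 to 12 regions and largest peak ends of 2316 to 13176 bp.

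Most short contigs with a region held a single one. Of the 4109 contigs, 2778 (67.6%) had 1 region, 852 had 2, 265 had 3 and 214 had 4 or more, a mean of 1.54 regions per contig, against 32.7 on high-numbered contigs. The share of numbers with any region was 20.1% in the lowest block and 68.3% in the last one below 12000. It was 34.2% over all numbers below 12000, against 92.4% from 12000 on.

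Whether short contigs appear rich or poor in binding regions depended on the length they were divided by. Per 10 kb up to the largest peak end of contigs with a region, there were 5.87 regions on low-numbered and 3.82 on high-numbered contigs. That span leaves out contigs without a peak and ends at the last peak of each contig. Both raise the density most where contigs are short and hold few regions. The higher value on low-numbered contigs therefore cannot show that they are rich in regions. If each number up to 13522 is 1 contig and lengths rise with the number, every contig is at least as long as the largest peak end seen on it or on any lower number. The low-numbered contigs then add up to at least 35058862 bp and the high-numbered to 130273674 bp, together 99.2% of the effective genome size that the authors gave their peak caller. On this scale there were 1.81 regions per 10 kb on low-numbered and 3.53 on high-numbered contigs. The low-numbered contigs then make up 21.2% of the length and hold 12.1% of the regions.

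**Figure D1:**
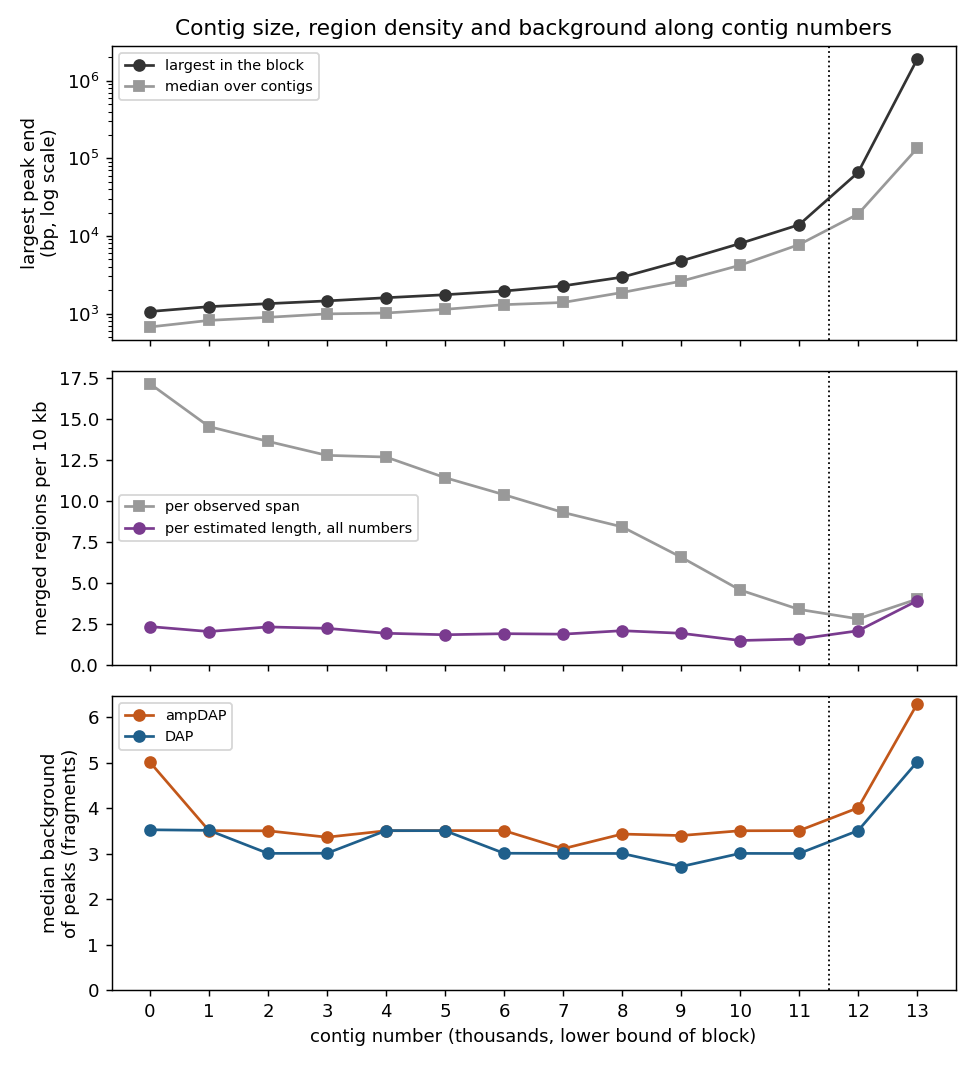
Largest peak end in bp on a log scale (top), merged regions per 10 kb (middle) and median background of peaks in fragments (bottom) for each block of 1000 contig numbers, with a dotted line at number 12000. Peak ends rise with the number; per observed span the density is 17.1 regions per 10 kb in the lowest block and 4.03 in the highest, whereas per estimated length it is 3.93 in the highest and 1.51 to 2.36 in the blocks below 12000.

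The background that a peak was tested against differed between the classes in every list. This background is the number of fragments expected at a peak from the control library, and it was recovered from the deposited pileup and fold enrichment. In ampDAP lists its median was 3.01 to 5.00 fragments on low-numbered and 5.01 to 7.51 on high-numbered contigs. In DAP lists it was 2.01 to 4.51 on low-numbered and 4.01 to 5.87 on high-numbered contigs. Over pooled peaks of DAP and ampDAP it was 3.01 and 3.51 below 12000. It was 3.51 and 4.01 from 12000 to 12999, and 5.02 and 6.29 from 13000 on. By list, the median background was lower on low-numbered contigs in 16 of 16 lists. The summit pileup, in fragments, was lower there in 15 of 16 lists, NRF full length DAP being the exception with a median of 28 against 24.5. The authors' fold enrichment went the other way, with a higher median on low-numbered contigs in 14 of 16 lists. One of the windows in which the caller reads background spans 10000 bp, which most low-numbered contigs do not fill as far as their peaks show, and the part of this in the results below was not tested except where a value within classes of background is given.

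The factors differed in how much of their binding lay on short contigs. NRF stood highest, with 386 of its 1997 regions there (19.3%, 95% Wilson interval 17.7 to 21.1). EGR followed with 12.5% (12.0 to 13.1), SP41 with 11.9% (11.5 to 12.3), YY1 with 11.4% (11.0 to 11.8) and GLI with 9.71% (9.18 to 10.3). Set against the 21.2% of estimated length, only the interval of NRF came near. These intervals cover counting error only, and with 1 library for each construct and kind of DNA the order of the factors was not tested.

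YY1 and SP41 made up most of the binding on short contigs, as they did elsewhere. SP41 was present in 2780 (43.9%) of the low-numbered and 44.8% of the high-numbered regions, and YY1 in 2645 (41.8%) and 44.8%. EGR was present in 1697 (26.8%) and 25.8%, and GLI in 1100 (17.4%) and 22.2%. NRF was present in 6.10% and 3.50%. Of EGR's regions, 38.1% held no other factor on low-numbered contigs, against 26.2% on high-numbered contigs. For SP41 these shares were 49.6% and 44.0%, for YY1 73.1% and 70.8%, for GLI 45.3% and 44.0%, and for NRF 41.2% and 44.7%.

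**Figure D2:**
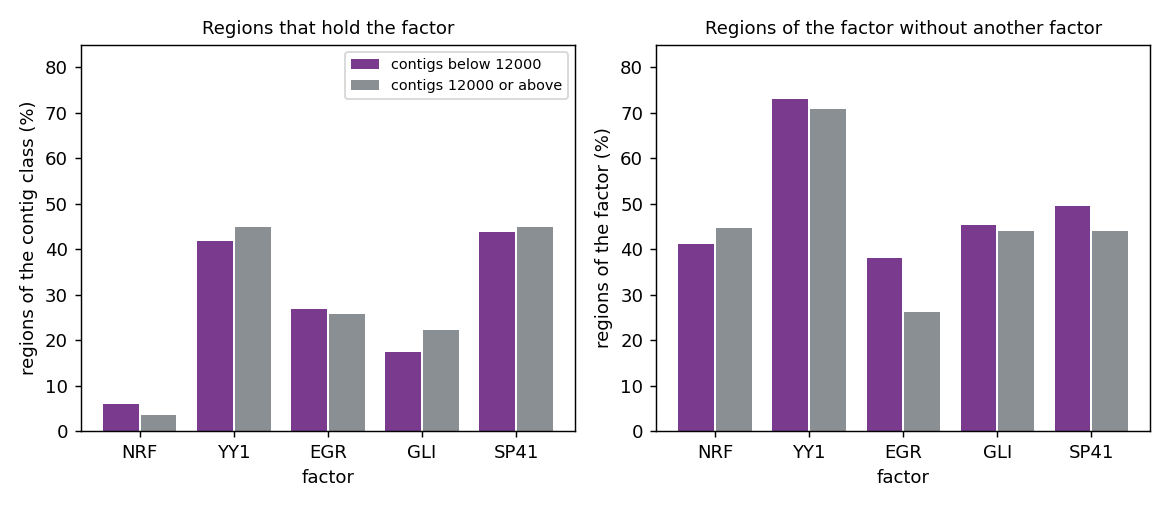
Percent of regions of a contig class that hold a factor (left) and percent of a factor's regions with no other factor (right), on contigs numbered below 12000 and 12000 or above. NRF has 6.10% of the low-numbered against 3.50% of the high-numbered regions, and EGR is alone in 38.1% against 26.2% of its regions.

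By list, the share of peaks on low-numbered contigs was higher on amplified than on native DNA in 7 of 8 constructs. It was 21.2% in ampDAP and 16.7% in DAP for NRF DBD, 19.0% and 18.3% for NRF full length, 14.6% and 12.3% for YY1 full length, and 11.0% and 10.6% for YY1 DBD. For SP41 full length it was 11.7% in ampDAP and 8.38% in DAP, and for SP41 DBD 11.3% and 9.03%. GLI DBD had 10.1% and 9.02%. EGR DBD had 11.9% in both lists, with a difference of −0.018 percentage points. The mean was 13.8% ± 4.11 in ampDAP and 12.0% ± 3.69 in DAP (SD over 8 constructs).

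The mean difference was 1.80 ± 1.56 percentage points (SD, n = 8), past the threshold when the signs of the 8 differences were permuted (exact and two-sided, p = 0.0156; Benjamini-Hochberg adjusted p = 0.0469 over 6 tests). The full length and DBD constructs of 1 factor are related, and all 8 lists of a kind of DNA share 1 control library. With the 5 factors as the unit the mean was 1.55 (exact sign-flip permutation p = 0.125, where 0.0625 is the smallest possible).

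**Figure D3:**
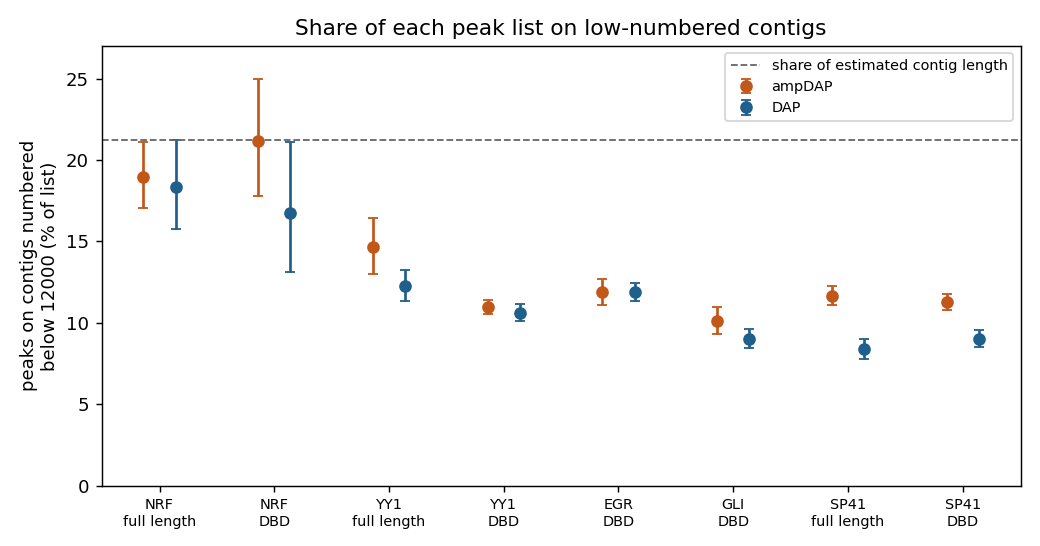
Percent of each list's peaks on contigs numbered below 12000, by construct, for ampDAP and DAP, with 95% Wilson intervals; the dashed line is the share of estimated contig length, 21.2%. NRF lists sit highest, from 16.7 to 21.2%, and SP41 full length DAP lowest, at 8.38%.

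Sharing between factors did not differ past the threshold between the classes. On low-numbered contigs 1717 regions (27.1%, 26.0 to 28.2) had peaks of at least 2 factors, on high-numbered contigs 30.4% (30.0 to 30.9), and over all contigs 30.0%. A single list had made 51.0% of the low-numbered regions and 45.8% of the high-numbered ones. Regions with all 5 factors were few, with 10 of 6333 (0.158%) on low-numbered contigs and 39 of 46023 (0.0847%) on high-numbered ones. Over all contigs their share was 0.0936%. Each of them holds NRF by definition, and 20.4% of them lay on low-numbered contigs, near the 19.3% of all NRF regions. Regions with 4 factors made up 1.09% on low-numbered and 1.46% on high-numbered contigs. Over peaks, the share in a region with another factor averaged 55.1% ± 14.3 on low-numbered and 58.1% ± 15.3 on high-numbered contigs (SD over 8 constructs). The difference of −2.98 ± 4.93 percentage points did not pass the threshold (exact sign-flip permutation p = 0.133, adjusted 0.159). It was −11.3 for EGR DBD but 4.23 for NRF DBD, and without NRF DBD the mean was −4.01 (exact permutation p = 0.0469).

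Peak widths differed little. The median width was 162 to 225.5 bp on low-numbered and 169 to 210 bp on high-numbered contigs over the 16 lists. The mean log2 ratio of low over high was −0.043 ± 0.064 (SD, n = 8 constructs), with 6 of 8 constructs below 0 (exact sign-flip permutation p = 0.0938, adjusted 0.141). The NRF constructs were the ones above 0, and without NRF DBD the mean was −0.058 (exact permutation p = 0.0469). Over all omissions of 1 construct the unadjusted exact permutation p ran from 0.0469 to 0.188. Merged regions had a median width of 194 bp on low-numbered and 208 bp on high-numbered contigs, and reached 1818 and 2958 bp. Of the low-numbered regions, 15.2% began within 300 bp of position 1, against 0.324% of the high-numbered ones. Without such peaks the log2 ratio was −0.047.

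As rank within a list, peak strength did not differ past the threshold between the contig classes. The mean percentile rank of −log10 q within a list was 46.8 ± 3.96 on low-numbered and 50.4 ± 0.534 on high-numbered contigs (SD over 8 constructs). The difference of −3.63 ± 4.49 did not pass the threshold (exact sign-flip permutation p = 0.0547, adjusted 0.109). It was −10.9 for EGR DBD, between −7.52 and −1.13 for YY1, GLI and SP41 constructs, and above 0 for both NRF constructs. Without NRF DBD it was −4.56 (exact permutation p = 0.0313), and without NRF full length −4.27 (exact permutation p = 0.0469). Over all omissions of 1 construct the unadjusted exact permutation p ran from 0.0313 to 0.109.

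For EGR the share of peaks on short contigs was 16.9% in the weakest decile, 13.4% in the fifth and 5.68% in the strongest (mean of 2 lists). YY1 had 15.9% in the weakest and 10.1% in the strongest decile. SP41 had 13.9% in the weakest decile, 7.30% in the ninth and 9.22% in the strongest. GLI had 11.8%, 9.34% and 11.4% in the same deciles. NRF had 18.1% in the weakest and 26.0% in the strongest decile. Over all 16 lists the mean was 15.6% in the weakest, 10.5% in the ninth and 13.5% in the strongest decile.

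**Figure D4:**
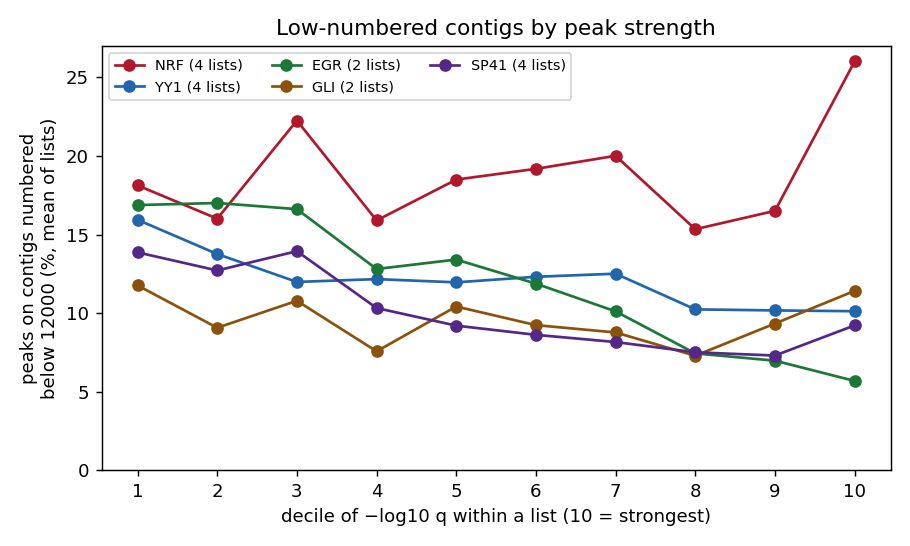
Percent of peaks on contigs numbered below 12000 in each decile of −log10 q within a list, as the mean over the lists of a factor. EGR starts at 16.9% in the weakest decile and ends at 5.68% in the strongest, while NRF ends at 26.0%.

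At the very top of the lists short contigs were frequent. The peaks of each list were ranked by −log10 q and the top 20 taken. Of these 320 peaks, 98 (30.6%) lay on low-numbered contigs, in 51 regions, with 2 to 10 per list. Whole lists had 12.9% there as the mean of 16 lists, and all peaks pooled had 11.0%. In 14 of 16 lists the top 20 share was above that of the whole list. The strongest 100 peaks gave 311 of 1600 (19.4%), from 7 in both EGR lists to 31 for SP41 DBD ampDAP. This share was above that of the whole list in 12 of 16 lists. It was below in both EGR lists, in YY1 full length ampDAP (9 of 100 against 14.6%) and in SP41 full length ampDAP (11 of 100 against 11.7%). For a list as short as NRF DBD DAP with 335, 100 peaks are a large part. Many of these peaks stood over a high background. Among the 20 strongest, 51 of the 98 on low-numbered contigs (52.0%) had a background of at least 20 fragments, against 56 of 222 (25.2%) on high-numbered contigs. Since lists of a kind of DNA share the control, such places recur between lists and the counts are not independent.

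The strongest peak of 7 of the 16 lists was on a short contig. YY1 DBD had it on contig 11028 with both kinds of DNA. In ampDAP the peak at positions 1341 to 2822 reached a pileup of 1264 fragments over a background of 103, a 12.2-fold enrichment. In DAP the peak at positions 144 to 1169 had 531 fragments over 101 and 5.20-fold enrichment. Only YY1 lists had peaks in these 2 neighbouring regions, and the full length protein had 1.76- to 4.24-fold enrichment there. The fold of YY1 full length was lower on amplified than on native DNA at the peaks that overlapped there. It was 2.29 against 4.24 for the pair at positions 1411 to 1604 and 1366 to 1622. The pileups of this pair were closer, at 248 and 285 fragments, and the backgrounds were 108 and 66.4. The fold thus does not show weaker binding on amplified DNA there.

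GLI DBD had its strongest peak on contig 9367 with both kinds of DNA, at positions 22 to 470 in ampDAP (5.17-fold) and 28 to 484 in DAP (5.61-fold). SP41 and EGR also had peaks there, in 7 lists in all. No peak on that contig ended past 519 bp. EGR DBD had rank 1 in ampDAP and rank 2 in DAP on contig 8294, at positions 257 to 484 and 220 to 485, with 11.3-fold and 11.6-fold enrichment. YY1 full length DAP had its strongest peak on contig 3679, positions 90 to 345, with 19.2-fold enrichment over a background of 12.0 fragments. The ampDAP peak there had 16.1-fold enrichment over 14.0.

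SP41 DBD ampDAP had its strongest peak on contig 2839, positions 998 to 1238, with 7.87-fold enrichment, against 3.55-fold for its DAP peak. For SP41 DBD DAP and SP41 full length DAP the highest low-numbered peak had rank 2, on contig 11657, positions 4514 to 4696, and contig 11733, positions 8646 to 8849. Both places also held SP41 ampDAP peaks and an EGR DAP peak. SP41 full length ampDAP had rank 2 on contig 9367, positions 315 to 519, with 9.31-fold enrichment, and YY1 full length ampDAP had rank 8 on contig 988.

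The highest-ranked low-numbered peak of each NRF list stood over 2.67 to 10.5 fragments of background. Other strong NRF peaks stood over more, as at contig 8363, where the full length ampDAP peak had 49.7 fragments of background. Contig 9772, positions 2640 to 2898, was in 10 lists. NRF full length had 40.0-fold enrichment in ampDAP and 39.5-fold in DAP, over backgrounds of 7.52 and 2.67 fragments. NRF DBD had 14.3-fold and 32.2-fold, from pileups of 128 and 112 fragments over backgrounds of 8.02 and 2.51. The SP41, EGR and GLI peaks there had 3.55- to 7.54-fold enrichment. On contig 2667 NRF DBD DAP had rank 6 in its list, at positions 989 to 1302, with 22.3-fold enrichment. The ampDAP peaks of highest rank for both NRF constructs, rank 7 for NRF full length and rank 9 for NRF DBD, lay at the start of contig 2190, at positions 2 to 222 and 7 to 203. Their enrichment was 55.6-fold and 14.0-fold, and neither had an NRF peak on native DNA.

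The regions in the most lists combined different leading factors. Contig 988, positions 58 to 839, was in 12 lists, all of them of YY1, EGR, GLI or SP41, and YY1 led it. YY1 DBD had 13.2-fold enrichment in ampDAP and 7.11-fold in DAP, and YY1 full length 8.10-fold and 6.55-fold, against 2.57- to 4.25-fold for the other factors. Contig 5764, positions 1474 to 1730, and contig 11921, positions 1722 to 2071, were in 11 lists and were led by NRF. On contig 5764 NRF full length had 25.2-fold enrichment in ampDAP and 17.5-fold in DAP, and on contig 11921 it had 24.9-fold and 37.2-fold. Its pileup on contig 11921 was nevertheless higher in ampDAP, with 386 fragments over a background of 14.5, against 148 over 3.01 in DAP. No YY1 peak lay in either region.

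Contig 10058, positions 633 to 1448, was in 11 lists, with SP41 full length highest at 7.58-fold in ampDAP and 4.48-fold in DAP. Contig 8363, positions 1994 to 2481, was in 10 lists and held all 5 factors. NRF full length had 12.6-fold enrichment there in ampDAP and 3.47-fold in DAP, and no other list had more than 4.27-fold. The other regions with all 5 factors were on contigs 8087, 11761, 5978 and 9691 with 10 lists each, 7913 and 3781 with 9, 2332 with 8, 11502 with 7 and 3635 with 5. In all of these except contig 11502, NRF was present through a single ampDAP list. Its enrichment in them ran from 1.63-fold on contig 11761 to 10.3-fold on contig 8087. On contig 2332 its −log10 q was only 1.64.

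The widest regions on short contigs were single-factor or built of neighbouring peaks. Contig 8925, positions 558 to 2375, was 1818 bp wide and held YY1 peaks only, from all 4 YY1 lists, with enrichment of 1.91- to 9.31-fold. The 1487 bp region on contig 11028 is the second of the YY1 pair above. Contig 11975, positions 1624 to 3026, was 1403 bp wide and held 10 peaks of EGR, GLI and SP41. The contigs with the most regions lay just below the bound. Contig 11773 had 13 regions up to position 10909, of which 10 held SP41. Contig 11988 had 10 up to position 13935, all of which held SP41 and were found on both kinds of DNA, and contigs 11805, 11821 and 11975 had 9 each.

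Sharing between amplified and native DNA was lower on short contigs for peaks found on amplified DNA. Of the low-numbered regions, 2490 (39.3%, 38.1 to 40.5) had peaks on both kinds of DNA, of the high-numbered ones 46.1% (45.7 to 46.6), and of all regions 45.3%. Regions with ampDAP peaks only made up 35.0% of the low-numbered and 29.3% of the high-numbered regions. Those with DAP peaks only made up 25.7% and 24.6%.

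Within constructs, 2957 of the 7030 low-numbered ampDAP peaks (42.1%) overlapped a DAP peak of the same construct, against 53.5% on high-numbered contigs and 52.2% over all contigs. The share was lower on low-numbered contigs in 8 of 8 constructs. The gap was widest for SP41, with 32.2% on low-numbered and 49.3% on high-numbered contigs for SP41 full length, and 33.7% and 49.8% for SP41 DBD. GLI DBD had 35.6% and 47.8%, and EGR DBD 76.3% and 87.4%. YY1 full length had 69.8% and 76.1%, YY1 DBD 44.5% and 49.9%, and NRF full length 23.8% and 27.4%. NRF DBD was nearly level with 34.9% and 35.4%.

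The mean over constructs was 43.9% ± 19.0 on low-numbered and 52.9% ± 19.8 on high-numbered contigs. The difference of −9.03 ± 5.98 percentage points (SD, n = 8) passed the threshold (exact sign-flip permutation p = 0.00781, the smallest possible; adjusted p = 0.0469). Within quartiles of −log10 q it was −6.60 (exact permutation p = 0.00781), and within quartiles of background, an alternative chosen after seeing the data, −2.91 (exact permutation p = 0.0703). Among peaks of at least 5-fold enrichment it was −3.96 (exact permutation p = 0.0938), and with the 5 factors as the unit −9.55, where no p under 0.0625 is possible.

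For peaks found on native DNA no such difference passed the test. Of the 6160 low-numbered DAP peaks, 2960 (48.1%) overlapped an ampDAP peak of the same construct, against 53.4% on high-numbered contigs and 52.8% over all contigs. The mean over constructs was 49.3% ± 18.8 on low-numbered and 50.7% ± 19.0 on high-numbered contigs, a difference of −1.43 ± 7.68 percentage points (exact sign-flip permutation p = 0.633, adjusted 0.633). It was below 0 in 6 of 8 constructs, from −8.13 for SP41 DBD, and reached 15.9 for NRF DBD, where 37 of 56 low-numbered peaks had a partner. Without NRF DBD it was −3.90 (exact permutation p = 0.0313). Over all omissions of 1 construct the unadjusted exact permutation p ran from 0.0313 to 0.922. Among peaks of at least 5-fold enrichment, a threshold that partners had to pass too, the sign turned to 5.94 (exact permutation p = 0.0156). Whether the direction from DAP and the direction from ampDAP differ was not tested.

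**Figure D5:**
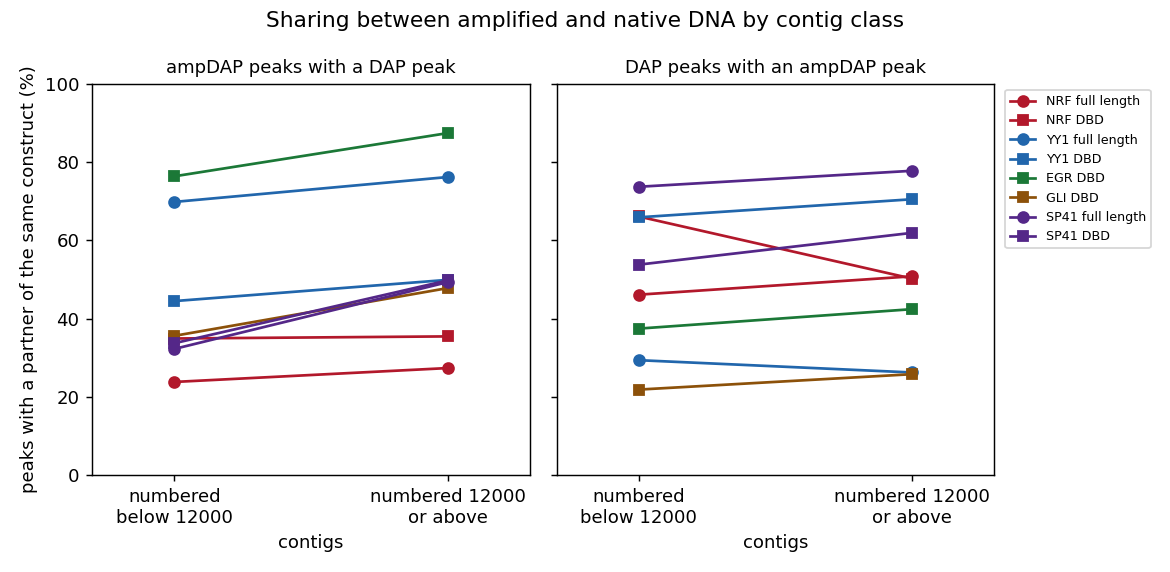
Percent of ampDAP peaks with a DAP peak (left) and of DAP peaks with an ampDAP peak (right) of the same construct, on contigs numbered below 12000 and 12000 or above, with 1 line per construct. All 8 lines rise to the right on the left panel; on the right panel NRF DBD and YY1 full length fall.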

How the data were processed

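Per the labels' protocols, the DNA had been broken into fragments of 200 bp on average, and what the factor retained was amplified for 20 cycles. The authors called peaks library by library with MACS 2.1.2, per the file headers. They used paired fragments and a q-value threshold of 0.05, took the HaloTag-only library made with matching DNA as control, and down-sampled the larger library at random. Usable fragments numbered 2161903 to 3168602 per library, per the file headers. The submitters' processing notes name Bowtie2, Bowtie and BS-Seeker2 without saying which was used for these libraries, and the genome build was not given in these sources. The deposited pileup is a signal of coverage in fragments, the deposited fold enrichment is a ratio to local background, and the deposited p-values and q-values are −log10 values.

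Positions, counted from 1, were used as deposited. Background was computed as (pileup + 1)/fold − 1. A Poisson tail at this background gave back the deposited −log10 p for 99.9% of peaks, within 2% plus 0.01. Peaks overlapped at 1 shared bp. Differences were taken per construct, averaged over both kinds of DNA for width, other factors and rank, and tested by exact two-sided sign-flip permutation over 8 constructs. Shares carry 95% Wilson intervals. Named regions on low-numbered contigs were the 5 in most lists, the strongest peak per list, the 5 contigs with most regions, the 3 widest regions and those with all 5 factors. Members, lists and tests were chosen with earlier results of these data known. Overlap and merging were tested on simulated data and against bedtools. No genome was used here, so no sequence or gene is given for a region. The 18 methylation libraries were not analysed here. Python 3.11.15, numpy 2.4.6, pandas 2.3.3, scipy 1.17.1, statsmodels 0.14.6 and matplotlib 3.10.9 were used.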

Additional observations from a re-analysis of the deposited data

Results flagged for a closer look

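The constructs were searched for 1 that stood far from the others by Dixon's test, which picks out about 5% of groups by chance, in 18 sets of 8 values. The gain of NRF DBD in the share of DAP peaks with an ampDAP partner, 15.9 percentage points on low-numbered over high-numbered contigs, was such a value. It rests on 56 low-numbered peaks, of which 66.1% (95% Wilson interval 53.0 to 77.1) had a partner, against 50.2% of 279 high-numbered peaks.

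On 2 measures all 4 NRF lists had the opposite sign to all lists of EGR, SP41 and YY1. The mean percentile rank of −log10 q was higher on low-numbered contigs by 1.83 for NRF (mean of 4 lists), but the difference was −10.9 for EGR (2 lists), −6.22 for SP41 and −4.15 for YY1 (4 lists each). The share of peaks in a region with another factor was higher by 2.81 percentage points for NRF, with differences of −11.3 for EGR, −6.20 for SP41 and −2.71 for YY1. The GLI lists were split. GLI DBD ampDAP had the sign of NRF, with a mean percentile of 51.3 on low-numbered and 49.9 on high-numbered contigs and 59.3% and 58.1% of peaks with another factor. GLI DBD DAP had the opposite sign, with 46.7 and 50.3 and with 55.7% and 57.5%. These differences between factors were not tested.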

How the results depend on the processing

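The alternatives were contig bounds of 11000 and 13000, peaks with 5 or more in −log10 q, peaks enriched 5-fold or more, the 5 factors as unit, leaving out single constructs and leaving out peaks within 300 bp of a contig start, and for sharing also 50% reciprocal overlap, quartiles of −log10 q or of background, and lists of equal length. With the bound at 11000 the log2 width ratio was −0.048 (exact permutation p = 0.0234) and the rank difference −3.76 (p = 0.00781, exact), both then past the threshold. With the bound at 13000 the difference in other factors was −5.06 (p = 0.00781, exact) and in rank −4.30 (p = 0.0313, exact). At 5-fold or more the rank difference was −8.99 (p = 0.0234, exact), DAP sharing turned to 5.94 and ampDAP sharing was −3.96. DAP sharing also turned sign within quartiles of −log10 q, at 0.294 (exact p = 0.883), and of background, at 3.73 (exact p = 0.398), where ampDAP sharing was −2.91. With 5 factors the difference in low-numbered share was 1.55 and in ampDAP sharing −9.55, and no p under 0.0625 was possible. Causes were not tested, beyond the smaller number of units with 5 factors.

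Leaving out single constructs gave 1.42 to 2.06 for the difference in low-numbered share, −10.2 to −7.88 for ampDAP sharing, −3.90 to −0.468 for DAP sharing, −0.058 to −0.032 for width, −4.01 to −1.79 for other factors and −4.56 to −2.60 for rank. The first pair stayed past the threshold throughout only by unadjusted p (exact permutation, at most 0.0313 and 0.0156). The p-values of the alternatives carry no adjustment over the 6 tests. All 6 tests pair values within a construct. No pairing by replicate could be added, since the labels carry no replicate numbers. Contig lengths were known only through peaks, fold and rank depend on the local background, and 1 library per list leaves no replicate error.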

Other observations

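Among peaks of native DNA, a high background was more frequent on short contigs. A background of at least 20 fragments was found for 190 of 6160 low-numbered DAP peaks (3.08%, 95% Wilson interval 2.68 to 3.55) and 254 of 53540 high-numbered ones (0.474%, 0.420 to 0.536). The low-numbered share was higher in 8 of 8 DAP lists. The 190 low-numbered peaks lay in 100 regions on 95 contigs. They made up 42.8% of all DAP peaks over such a background, so most of these lay on high-numbered contigs. On amplified DNA the shares were 4.47% on low-numbered and 5.21% on high-numbered contigs, and the low-numbered share was higher in 5 of 8 lists. The 8 lists of a kind of DNA share 1 control, so their counts are not independent.

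Along the low-numbered contigs themselves, the shortest ones were not the poorest in shared binding. On contigs numbered below 4000, 29.5% of 1064 regions held at least 2 factors and 41.9% had peaks on both kinds of DNA. From 4000 to 7999 these shares were 28.7% and 40.6% of 1354 regions, and from 8000 to 11999 they were 25.9% and 38.2% of 3915 regions. Regions per 10 kb of estimated length were 2.25, 1.91 and 1.69 in the same order. Just above the bound, from 12000 to 12999, 26.0% of 5901 regions held at least 2 factors and 40.1% had peaks on both kinds of DNA. From 13000 on these shares were 31.1% and 47.0% of 40122 regions. The first block above the bound was thus nearer the low-numbered contigs than the contigs from 13000 on. Of all regions on low-numbered contigs, YY1 alone made up 30.5%, against 31.7% of the regions on high-numbered contigs. These shares were 21.8% and 19.7% for SP41 alone, 10.2% and 6.75% for EGR alone, 9.06% and 9.17% for the pair of EGR and SP41, 7.86% and 9.78% for GLI alone and 2.51% and 1.56% for NRF alone. They were not tested.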
